A study of Equus asinus with 12 samples.

Results

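The genes described here are 10 genes of muscle wasting and of the FoxO transcription factors in donkey skeletal muscle: FBXO32, FBXO30, GABARAPL1, MAP1LC3B, BNIP3, DDIT4, SESN1, CDKN1A, GADD45A and KLF15. They were chosen by name among the 27084 loci of the deposited table, and each is represented by its most abundant row that carries a reference transcript. All 10 passed the filter on low values, which left 12408 loci, although GADD45A reached 1 FPKM, a fragment count scaled by transcript length and by library size, in only 4 of the 12 libraries. The samples are RNA-seq libraries of Dezhou donkeys (Equus asinus), all 24 months old, with 3 libraries in each of 4 groups: Wutou gluteal, Wutou longissimus dorsi, Sanfen gluteal and Sanfen longissimus dorsi. Wutou and Sanfen are 2 strains of the breed, gluteal muscle covers the hip, and longissimus dorsi runs along the back. The labels give no treatment. The 12 samples come from 6 donkeys by the design text, and no label says which libraries share an animal. All p-values therefore rest on the spread among libraries, which may be partly technical.

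FoxO factors are held outside the nucleus when insulin or IGF signalling activates the kinase AKT. In fasting, disuse or glucocorticoid excess they enter the nucleus and raise genes that tag muscle proteins with ubiquitin, build autophagosomes, restrain the growth kinase complex mTORC1 and stop the cell cycle. These genes are best known from atrophying rodent muscle, and in resting muscle they are part of normal protein turnover. The authors' deposited table places 7 of the 10 under the FoxO signalling label of its pathway annotation (FBXO32, GABARAPL1, MAP1LC3B, BNIP3, CDKN1A, GADD45A and KLF15). CDKN1A and GADD45A also stand under its p53 label, as does SESN1, and DDIT4 stands under its mTOR label.

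The tissue was checked with 8 skeletal muscle markers, including ACTA1, CKM and TTN. All were kept and together summed to 24844 to 32585 FPKM per library. They mark skeletal muscle in general, so they do not check which muscle or strain a library came from. The FPKM of all loci together amounted to 214564 to 319767 in a library, of which the top 10 loci made up 43.8% to 56.5%. Read depth is unknown. The most frequent ratio of low values to those of 1 library was 0.920 to 1.06, but it held only 1.08% to 1.81% of the ratios, so no counting interval is given.

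The 10 genes spanned a wide range of levels per length. FBXO32 was the most abundant with a mean of 27.7 FPKM over the 12 libraries, above 96.0% of the kept loci, followed by BNIP3 at 12.4, FBXO30 at 8.17, SESN1 at 5.24, DDIT4 at 5.07, CDKN1A at 3.84, GABARAPL1 at 2.59, MAP1LC3B at 1.52, KLF15 at 1.47 and GADD45A at 0.769 FPKM. FBXO32 exceeded BNIP3 in all 12 libraries. SESN1 and DDIT4 could not be ordered, since SESN1 was the more abundant in 6 of 12 libraries, and the same held for MAP1LC3B against KLF15. The other neighbours in this order kept it in 8 to 11 libraries.

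**Figure D1:**
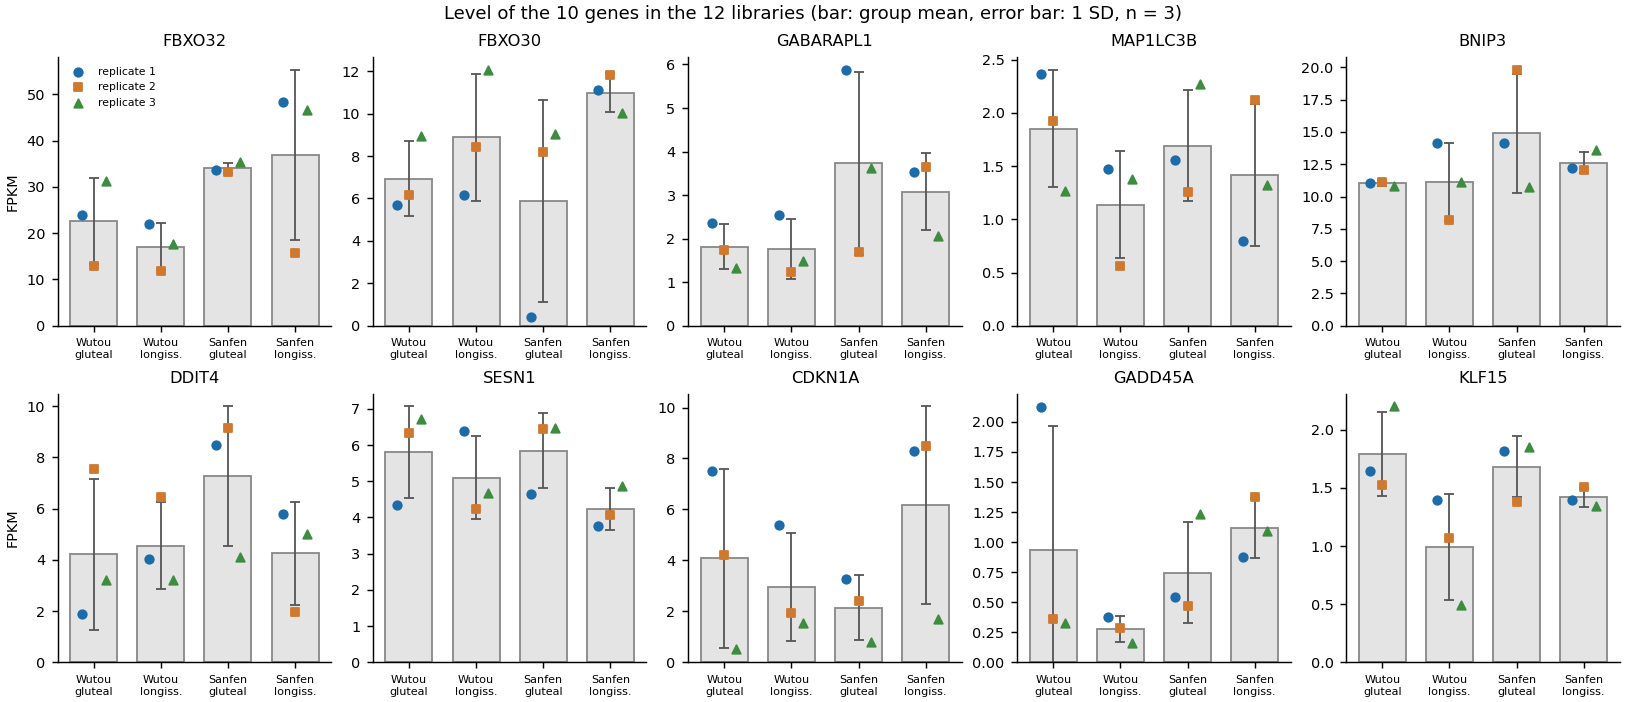
FPKM of the 10 genes, 1 panel per gene, with a vertical axis in FPKM that starts at 0 and the 4 groups side by side. Symbols are the 3 libraries of a group by replicate number, bars are group means and error bars 1 SD. FBXO30 lies at 0.401 FPKM in the Sanfen gluteal library of replicate 1, and the 3 Wutou gluteal libraries of FBXO32 lie below the 3 Sanfen gluteal ones.

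None of the 10 genes differed between muscles or between strains at an adjusted p under 0.05 by limma, fitted to log2(FPKM + 1) and adjusted by Benjamini-Hochberg over all 12408 loci. The count was 0 of 10 in each of the 7 comparisons, and few loci of the whole table were called. Between gluteal and longissimus muscle these were 0% in Wutou, 0.0242% in Sanfen and 0% averaged over strains. Between Wutou and Sanfen they were 0.00806% in gluteal muscle, 0.0161% in longissimus and 0% averaged over muscles, and for the interaction of strain and muscle 0.00806%. The smallest adjusted p of any of the 10 was 0.745, that of KLF15 between muscles. An unadjusted p under 0.05 was reached by 1 of 10 genes between muscles in Wutou (5.68% of all loci), by 0 in Sanfen (3.57%) and by 1 averaged over strains (6.56%). Between strains it was reached by 0 in gluteal muscle (4.86%), by 2 in longissimus (5.52%) and by 2 averaged over muscles (5.97%), and in the interaction by 0 (2.60%). Counted without a test, on the row that stands for each gene, 4 gene and comparison pairs had groups of 3 libraries that did not overlap. In Wutou 1 gene lay higher in gluteal than in longissimus muscle (8.70% of all loci) and 0 lower (4.18%), and in Sanfen 0 higher (6.27%) and 1 lower (1.27%). In gluteal muscle 0 lay higher in Wutou than in Sanfen (2.19%) and 1 lower (8.68%), and in longissimus 0 higher (3.88%) and 1 lower (7.92%). Over 6 libraries a side, 0 genes lay apart between muscles (0.330% of all loci higher, 0.0564% lower) or between strains (0.0242% higher, 0.451% lower).

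Between muscles, averaged over strains, 8 of 10 had the larger mean log2 level in gluteal muscle, with a median difference of 0.15, beside 65.9% of all loci and a median of 0.065. Between strains, averaged over muscles, 8 of 10 had the smaller mean log2 level in Wutou, with a median difference of -0.22, beside 64.7% of all loci and a median of -0.068. In longissimus alone 8 of 10 were smaller in Wutou (median -0.31, all loci -0.056), and in gluteal muscle 5 of 10 were (median 0.018, all loci -0.086). The comparisons share libraries and are not independent of each other.

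**Figure D2:**
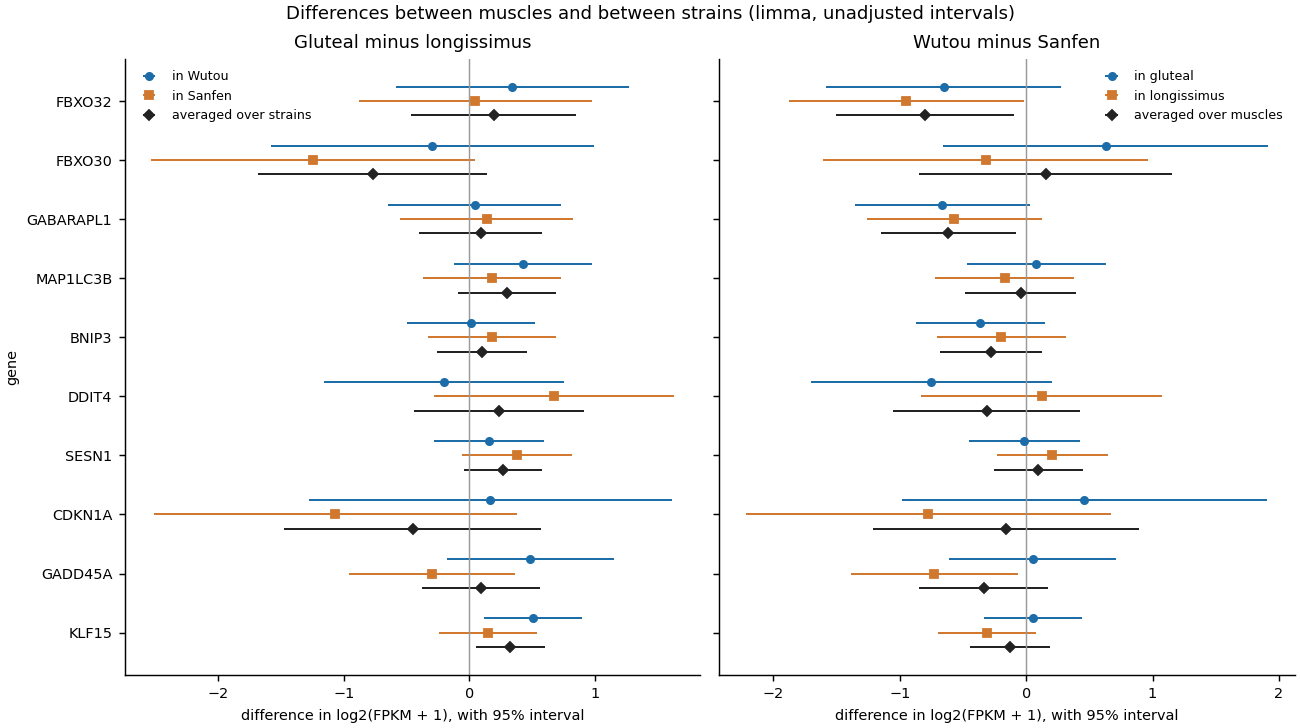
Difference in log2(FPKM + 1) for each of the 10 genes, with gluteal minus longissimus on the left and Wutou minus Sanfen on the right. Points are limma estimates and bars their 95% intervals, not adjusted for the number of genes. Most intervals include 0. Those of FBXO32 and GABARAPL1 averaged over muscles, and of FBXO32 and GADD45A between strains in longissimus, lie below 0. Those of KLF15 between muscles in Wutou and averaged over strains lie above 0.

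The pair of ubiquitin ligase genes is described first. FBXO32 (locus MSTRG.15515), also called MAFbx, encodes the F-box protein that selects substrates for an SCF ubiquitin ligase in wasting muscle. It was listed at 23.9, 12.9 and 31.3 FPKM in Wutou gluteal, 21.9, 11.7 and 17.7 in Wutou longissimus, 33.7, 33.2 and 35.4 in Sanfen gluteal and 48.4, 15.7 and 46.7 in Sanfen longissimus libraries. In this row all 3 Wutou gluteal libraries lay below all 3 Sanfen gluteal ones, a separation that 8.68% of all loci showed in that direction. In longissimus the groups overlapped through 1 Sanfen library, replicate 2 at 15.7 FPKM. FBXO32 averaged 17.1 ± 5.12 FPKM in Wutou and 36.9 ± 18.4 in Sanfen longissimus (SD, n = 3 each), a log2 difference of -0.95 (SE 0.42, limma adjusted p = 0.854). Without that Sanfen library the difference was -1.46 (limma adjusted p = 0.593), and without Sanfen longissimus replicate 1 it was -0.68. These were the ends of the range when each library was left out in turn. Averaged over muscles the strain difference was -0.80 (SE 0.32, 95% interval -1.51 to -0.095, limma adjusted p = 0.793). The muscle difference averaged over strains was 0.19 (SE 0.30), with an interval of -0.46 to 0.85.

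FBXO32 also appears in assembled rows that hold no reference transcript. Locus MSTRG.15518 was listed at 46.3, 33.4 and 0 FPKM in Wutou gluteal, 43.4, 0 and 28.1 in Wutou longissimus, 73.0, 77.4 and 0 in Sanfen gluteal and 68.5, 30.5 and 80.9 in Sanfen longissimus libraries. It was therefore at 0 in 3 libraries and at 28.1 FPKM or more in the other 9, where it exceeded the reference row 1.42 to 2.59 times. Such a pattern, at 0 in at least 1 library and at 20 FPKM or more in every other, was seen in 7 of the 12408 loci. The reference row in the 3 libraries at 0 measured 31.3, 11.7 and 35.4 FPKM. A further row, MSTRG.15517, was listed at 0.0776 FPKM in 1 library and at 0 in 11. With all rows of the name summed, the FBXO32 strain difference was -1.39 in longissimus and -1.03 averaged over muscles, and neither passed (limma adjusted p = 0.854 and 0.824).

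FBXO30 (MSTRG.8212) encodes another F-box protein, named MUSA1 in mouse muscle, where BMP signalling restrains it. It was listed at 5.69, 6.18 and 8.94 FPKM in Wutou gluteal, 6.15, 8.42 and 12.1 in Wutou longissimus, 0.401, 8.18 and 9.03 in Sanfen gluteal and 11.1, 11.8 and 10.0 in Sanfen longissimus libraries. The Sanfen gluteal library of replicate 1 stood far below the other 11, whose lowest was 5.69 FPKM. Among the kept loci whose next lowest library reached at least 1 FPKM, 52 had a lowest library more than 10 times below it, and FBXO30 was the 1 of these whose lowest library was this one. Sanfen gluteal and longissimus libraries did not overlap (1.27% of all loci lay lower in gluteal muscle without overlap). Sanfen gluteal averaged 5.87 ± 4.76 and Sanfen longissimus 11 ± 0.907 FPKM (SD, n = 3 each), a log2 difference of -1.24 (SE 0.59, limma adjusted p = 1.0). Without the library at 0.401 FPKM that difference was -0.32, and the muscle difference averaged over strains, -0.77 with all libraries, was -0.31. The strain difference averaged over muscles was 0.15 with all libraries and -0.31 without it.

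**Figure D3:**
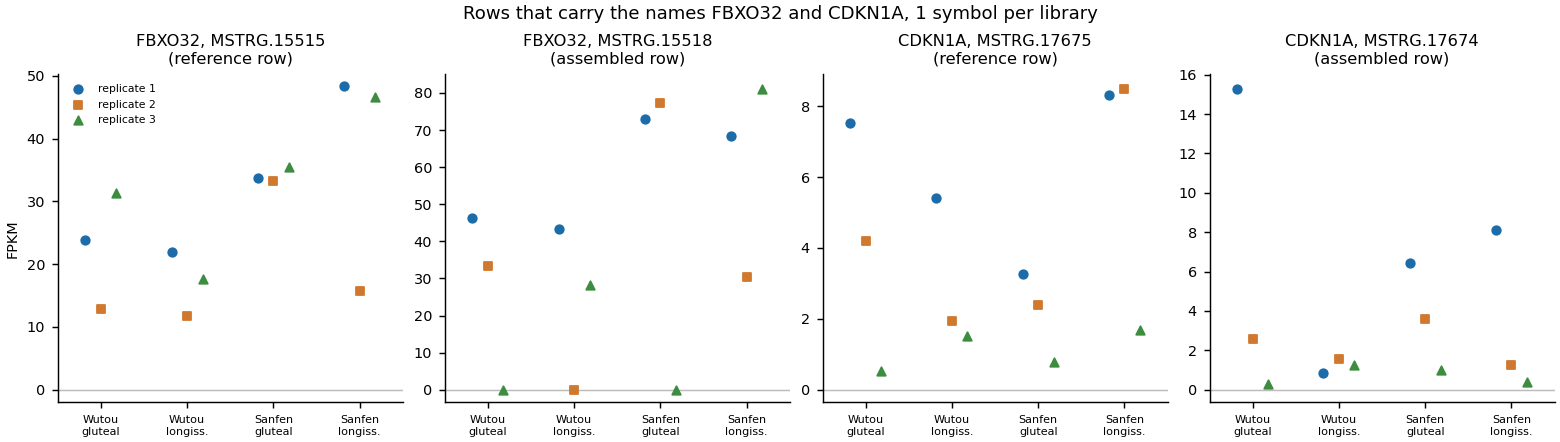
FPKM in each library for the reference row and the most abundant assembled row of FBXO32 and of CDKN1A, plotted by group (horizontal) in FPKM (vertical), 1 symbol for each library. The assembled FBXO32 row is at 0 in 3 libraries and between 28.1 and 80.9 FPKM in the other 9.

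Among the autophagy genes, GABARAPL1 and MAP1LC3B encode members of the ATG8 family, small ubiquitin-like proteins that are bound to lipid on the growing autophagosome. GABARAPL1 (MSTRG.8317) was listed at 2.36, 1.75 and 1.33 FPKM in Wutou gluteal, 2.54, 1.24 and 1.49 in Wutou longissimus, 5.88, 1.69 and 3.62 in Sanfen gluteal and 3.52, 3.65 and 2.06 in Sanfen longissimus libraries. Both muscles averaged less in Wutou, with overlap in each: 1.81 ± 0.521 against 3.73 ± 2.09 FPKM in gluteal and 1.76 ± 0.693 against 3.08 ± 0.885 in longissimus muscle (SD, n = 3 each). The strain difference averaged over muscles was -0.62 on the log2 scale (SE 0.25, 95% interval -1.15 to -0.079, limma adjusted p = 0.793). The gluteal difference, -0.66 with all libraries, was -0.34 without the highest library, Sanfen gluteal replicate 1, and -1.02 without Sanfen gluteal replicate 2. The muscle difference was 0.090 (interval -0.40 to 0.58).

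MAP1LC3B (MSTRG.7) was listed at 2.36, 1.92 and 1.27 FPKM in Wutou gluteal, 1.47, 0.559 and 1.38 in Wutou longissimus, 1.56, 1.25 and 2.27 in Sanfen gluteal and 0.793, 2.12 and 1.33 in Sanfen longissimus libraries. The groups overlapped in every comparison. The muscle difference averaged over strains was 0.30 (SE 0.18, interval -0.087 to 0.69, limma adjusted p = 0.791), and the strain difference was -0.044 (interval -0.48 to 0.39). GABARAPL1 was the more abundant of the pair in 10 of 12 libraries.

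BNIP3 (MSTRG.10769) encodes a protein of the outer mitochondrial membrane that recruits autophagosomes to mitochondria. It was listed at 11.1, 11.2 and 10.8 FPKM in Wutou gluteal, 14.2, 8.16 and 11.1 in Wutou longissimus, 14.1, 19.8 and 10.7 in Sanfen gluteal and 12.2, 12.1 and 13.6 in Sanfen longissimus libraries. Its highest library was 2.43 times its lowest, a narrower range than that of the other members except SESN1. The strain difference averaged over muscles was -0.28 (SE 0.18, interval -0.68 to 0.12, limma adjusted p = 0.866), and the muscle difference was 0.099 (interval -0.26 to 0.46).

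DDIT4 and SESN1 encode inhibitors of mTORC1, the kinase complex that drives protein synthesis. DDIT4 (MSTRG.3838), also known as REDD1 and raised by stress and glucocorticoids, acts through the TSC complex. It was listed at 1.87, 7.55 and 3.22 FPKM in Wutou gluteal, 4.02, 6.45 and 3.21 in Wutou longissimus, 8.5, 9.15 and 4.13 in Sanfen gluteal and 5.80, 1.97 and 5.01 in Sanfen longissimus libraries. The groups overlapped throughout. Its muscle difference was -0.20 in Wutou and 0.67 in Sanfen. The interaction was -0.88 (SE 0.62, interval -2.22 to 0.47, limma adjusted p = 1.0), so a difference between the strains in this contrast was not shown. Averaged, the muscle difference was 0.24 (interval -0.44 to 0.91) and the strain difference -0.31 (interval -1.05 to 0.42). The muscle difference was 0.021 without Wutou gluteal replicate 2, and the strain difference was -0.14 without Wutou gluteal replicate 1.

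SESN1 (MSTRG.3365), a sestrin, restrains mTORC1 when leucine is scarce. It had the narrowest range of the 10, at 4.35, 6.32 and 6.72 FPKM in Wutou gluteal, 6.39, 4.23 and 4.67 in Wutou longissimus, 4.64, 6.43 and 6.46 in Sanfen gluteal and 3.77, 4.07 and 4.88 in Sanfen longissimus libraries. Its highest library was 1.78 times its lowest. The muscle difference was 0.38 in Sanfen (SE 0.20, limma adjusted p = 1.0) and 0.27 averaged over strains (SE 0.14, interval -0.044 to 0.58, limma adjusted p = 0.774). The strain difference averaged over muscles was 0.096 (interval -0.26 to 0.45).

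CDKN1A and GADD45A are genes of growth arrest. CDKN1A (MSTRG.17675), an inhibitor of cyclin-dependent kinases and a target of both FoxO factors and p53, was listed at 7.52, 4.20 and 0.518 FPKM in Wutou gluteal, 5.41, 1.93 and 1.53 in Wutou longissimus, 3.27, 2.40 and 0.780 in Sanfen gluteal and 8.31, 8.49 and 1.69 in Sanfen longissimus libraries. Its highest library was 16.4 times its lowest, and its SD within groups, 0.96 on the log2(FPKM + 1) scale, was larger than that of 98.1% of kept loci. The groups overlapped in every comparison, while the library of replicate 3 was the lowest of its group in all 4 groups. For 2.22% of all kept loci replicate 3 was lowest in this way. The muscle difference averaged over strains was -0.45 (SE 0.47, interval -1.47 to 0.57), and the strain difference was -0.16 (interval -1.21 to 0.89). Without the lowest library, Wutou gluteal replicate 3, they were -0.094 and 0.17. The assembled row MSTRG.17674 was listed at 15.3, 2.56 and 0.30 FPKM in Wutou gluteal, 0.865, 1.58 and 1.27 in Wutou longissimus, 6.43, 3.60 and 0.986 in Sanfen gluteal and 8.13, 1.27 and 0.374 in Sanfen longissimus libraries. It exceeded the reference row in 4 of 12 libraries. With all CDKN1A rows summed the muscle difference averaged over strains was -0.12 and the strain difference -0.38. The remaining row, MSTRG.17676, reached at most 2.0 FPKM and was listed at 0 in 6 libraries.

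GADD45A (MSTRG.17991), a stress protein that ATF4 raises in immobilised or fasted mouse muscle, was the least abundant of the 10. It was listed at 2.12, 0.362 and 0.325 FPKM in Wutou gluteal, 0.377, 0.287 and 0.160 in Wutou longissimus, 0.540, 0.470 and 1.23 in Sanfen gluteal and 0.878, 1.37 and 1.09 in Sanfen longissimus libraries. In longissimus all 3 Wutou libraries lay below all 3 Sanfen ones, as 7.92% of all loci did. The means were 0.275 ± 0.109 FPKM in Wutou and 1.12 ± 0.249 in Sanfen longissimus (SD, n = 3 each) and the log2 difference -0.73 (SE 0.30, limma adjusted p = 0.854). That scale draws values near 0 together, and with 0.1 added in place of 1 the difference was -1.72 (limma adjusted p = 0.827). In gluteal muscle 1 Wutou library, replicate 1 at 2.12 FPKM, was the highest of all 12, and the strains averaged 0.937 ± 1.03 FPKM in Wutou and 0.747 ± 0.421 in Sanfen. The interaction of strain and muscle was 0.78 (SE 0.43, limma adjusted p = 1.0) and 0.37 without that library. Averaged over muscles the strain difference was -0.34 (interval -0.85 to 0.17), and the muscle difference was 0.095 (interval -0.37 to 0.56).

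KLF15 (MSTRG.6285) is a zinc finger transcription factor that glucocorticoids induce and that drives the breakdown of branched-chain amino acids in muscle. It was listed at 1.65, 1.53 and 2.20 FPKM in Wutou gluteal, 1.40, 1.07 and 0.497 in Wutou longissimus, 1.82, 1.38 and 1.86 in Sanfen gluteal and 1.40, 1.51 and 1.35 in Sanfen longissimus libraries. In this row all 3 Wutou gluteal libraries lay above all 3 Wutou longissimus ones, as 8.70% of all loci did, and the Sanfen groups overlapped. The means were 1.79 ± 0.360 and 0.989 ± 0.456 FPKM in Wutou gluteal and longissimus muscle (SD, n = 3 each), a log2 difference of 0.51 (SE 0.18, limma adjusted p = 0.870). Without Wutou longissimus replicate 3, the library at 0.497 FPKM, it was 0.32, and with 0.1 added in place of 1 it was 0.88 (limma adjusted p = 0.839). Averaged over strains the muscle difference was 0.33 (SE 0.13, 95% interval 0.052 to 0.60, limma adjusted p = 0.745), and the strain difference was -0.13 (interval -0.44 to 0.19). An assembled KLF15 row, MSTRG.6284, ranged from 0.412 to 2.42 FPKM, and with both rows summed the Wutou muscle difference was also 0.32. The Wutou groups then overlapped. Wutou gluteal replicate 1 held 1.65 FPKM in the reference row and 0.412 in MSTRG.6284, and Wutou longissimus replicate 1 held 1.40 and 1.27.

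**Figure D4:**
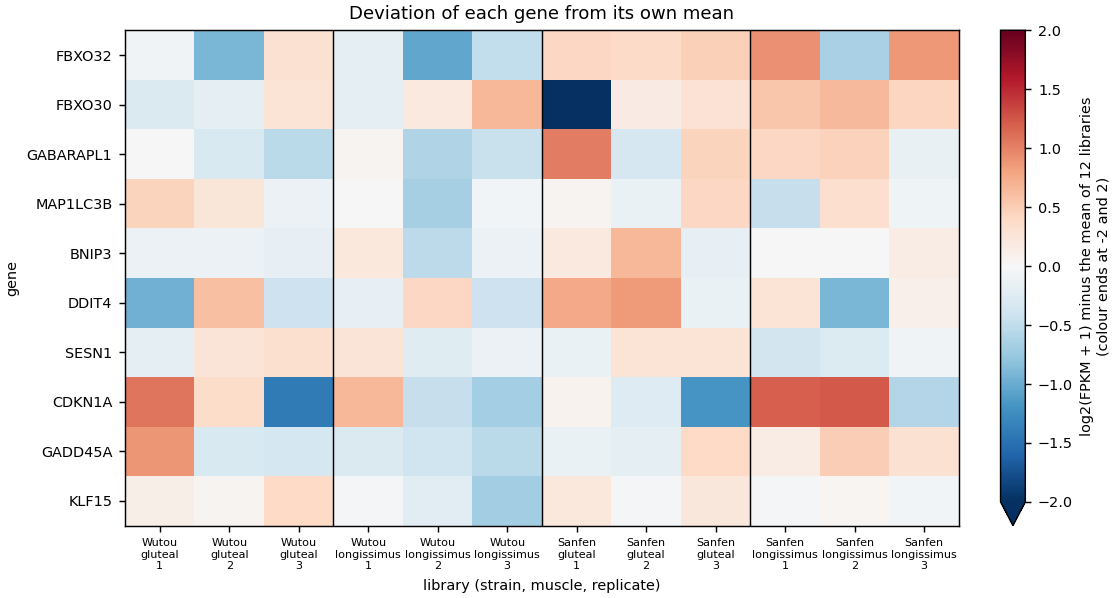
Deviation of log2(FPKM + 1) from the mean over 12 libraries, as colour, for the 10 genes (rows) in the 12 libraries (columns, by strain, muscle and replicate number). Red is above and blue below the gene's own mean. FBXO30 is far below its mean in Sanfen gluteal replicate 1, and CDKN1A is below its mean in replicate 3 of every group.

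Within groups the 10 genes had a median SD of 0.42 on the log2(FPKM + 1) scale, beside 0.27 over all kept loci. The kept loci were not matched to them in level, which bears on the SD on this scale. CDKN1A, FBXO30 (0.85), DDIT4 (0.62) and FBXO32 (0.59) were the most variable, each above 91.9% or more of the kept loci. The FBXO30 value includes Sanfen gluteal replicate 1, at 0.401 FPKM. KLF15 (0.21) and SESN1 (0.24) were the least variable, above 29.8% and 39.4% of the kept loci. Wutou longissimus replicate 2 was the lowest of 12 libraries for 4 genes (FBXO32, GABARAPL1, MAP1LC3B and BNIP3), and 8 of 10 lay below their own mean in it. Wutou longissimus replicate 3 had 9 of 10 below their mean. The median deviation of the 10 genes was -0.43 in each of these libraries, beside -0.076 and -0.062 over all kept loci. FBXO32 was lowest in replicate 2 of all 4 groups, which 2.46% of kept loci shared.

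Over the 45 pairs the median Pearson r of log2(FPKM + 1) across the 12 libraries was 0.11, with a range of -0.55 to 0.56. The libraries may share donkeys and are not independent. MAP1LC3B with GADD45A had the highest r (0.56), and FBXO30 with GABARAPL1 the lowest (-0.55), with a Spearman rho of -0.11 for that pair. FBXO32 had an r of 0.49 with BNIP3, 0.39 with GABARAPL1 and 0.37 with KLF15. Its r was 0.31 with GADD45A, 0.16 with DDIT4, 0.059 with SESN1, -0.054 with MAP1LC3B, -0.093 with FBXO30 and -0.15 with CDKN1A. DDIT4 ran against GADD45A (-0.51) and MAP1LC3B (-0.47), and CDKN1A against SESN1 (-0.53). These values include differences between the group means. For deviations from the group means the median r over the 45 pairs was 0.0054, with a range of -0.69 to 0.59. On that measure FBXO32 had an r of 0.26 with BNIP3, -0.055 with GABARAPL1 and 0.16 with KLF15.

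Among 2127 reference genes with a symbol and a mean of at least 5 FPKM, those whose level across the 12 libraries was most like that of FBXO32 were UCP3 (r = 0.90), MTMR10 (0.87), ZFAND5 (0.86) and ZBTB11 (0.86). UCP3, an uncoupling protein of the inner mitochondrial membrane, was listed at 13.6, 2.23 and 11.3 FPKM in Wutou gluteal, 16.9, 1.64 and 4.40 in Wutou longissimus, 13.4, 16.6 and 20.9 in Sanfen gluteal and 18.4, 3.82 and 18.8 in Sanfen longissimus libraries. Its 3 lowest libraries were those lowest for FBXO32. The genes called most like were picked for a high r over these same libraries, so such likeness is no separate result. For CDKN1A they were MACF1 (r = 0.92), SREBF1 (0.90), ANKRD1 (0.90) and AGO2 (0.88). ANKRD1, a protein of the sarcomere that binds titin, was listed at 215, 42.1 and 0.800 FPKM in Wutou gluteal, 94.3, 12.7 and 27.5 in Wutou longissimus, 60.0, 52.8 and 7.30 in Sanfen gluteal and 141, 138 and 47.0 in Sanfen longissimus libraries. For DDIT4 they were RPL12 (r = 0.86), RPL4 (0.84), SLC25A3 (0.84) and RPL23A (0.83), and for KLF15 they were SMARCA2 (0.77), ANK2 (0.76), PAK2 (0.75) and CDV3 (0.75).

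**Figure D5:**
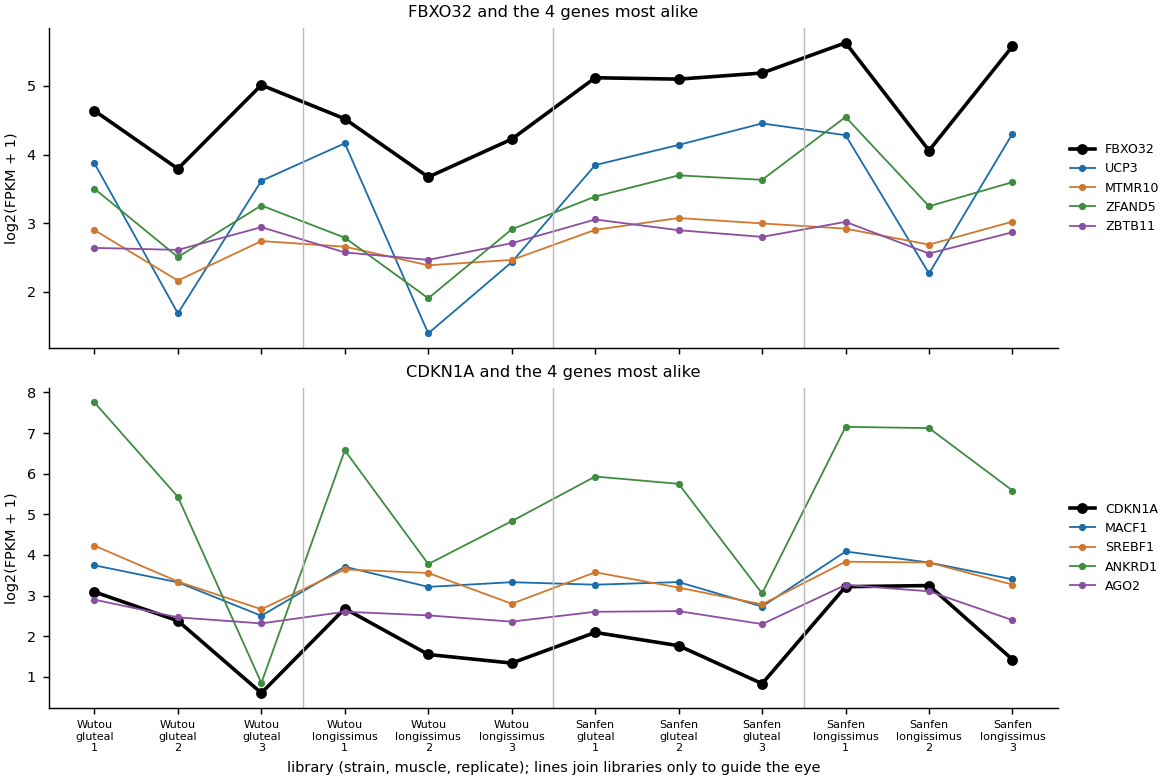
Level of FBXO32 (top) and CDKN1A (bottom) in black and of the 4 genes most alike across libraries in colour, with log2(FPKM + 1) on the vertical axis and the 12 libraries on the horizontal axis. UCP3 is lowest in the 3 libraries in which FBXO32 is lowest, and ANKRD1 is lowest, at 0.800 FPKM, in the library in which CDKN1A is lowest. The coloured genes were picked for their likeness over these same libraries.

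The rest of the pathway was read from 10 lists with 175 genes, of which 150 were kept, and 0 of them passed in any of the 7 comparisons in limma. Of 151 list entries, an unadjusted p under 0.05 was reached between muscles by 11 in Wutou (5.68% of all loci), 8 in Sanfen (3.57%) and 13 averaged over strains (6.56%). Between strains it was reached by 13 in gluteal muscle (4.86%), 7 in longissimus (5.52%) and 13 averaged over muscles (5.97%), and in the interaction by 4 (2.60%). The FoxO factors FOXO1 and FOXO3 ranged over the 12 libraries from 1.34 to 3.33 FPKM and from 1.08 to 4.95 FPKM. Under the authors' FoxO signalling label stood 167 kept loci, of which 0 were called in any comparison. TRIM63, the MuRF ubiquitin ligase that accompanies FBXO32 in wasting muscle, shares its row with another reference locus and so is uncertain. That row was listed at 10.3, 9.83 and 7.81 FPKM in Wutou gluteal, 20.8, 12.6 and 14.7 in Wutou longissimus, 7.82, 12 and 11.1 in Sanfen gluteal and 16.2, 10.1 and 13.6 in Sanfen longissimus libraries. Its muscle difference was -0.52 (SE 0.17, limma adjusted p = 0.745), where that of FBXO32 was 0.19.

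Of all kept loci, 65.9% had the larger mean in gluteal muscle (median 0.065) and 35.3% in Wutou (median -0.068). Of the list of FoxO factors and atrophy ubiquitin ligases, 12 of 19 kept genes had the larger mean in gluteal muscle (median 0.032) and 6 of 19 in Wutou (median -0.075). Its other named gene, the ligase NEDD4, averaged 5.89 ± 2.32 FPKM in gluteal and 3.37 ± 1.57 in longissimus muscle (SD, n = 6 each, limma adjusted p = 0.745). Of the autophagy list, 17 of 29 were larger in gluteal muscle (median 0.069) and 11 of 29 in Wutou (median -0.050). BNIP3L, the mitophagy receptor related to BNIP3, averaged 1.08 ± 0.129 FPKM in Sanfen gluteal and 1.95 ± 0.695 in Sanfen longissimus muscle (limma adjusted p = 1.0), and the autophagy receptor OPTN 1.80 ± 0.747 and 0.943 ± 0.265 in Wutou gluteal and longissimus muscle (limma adjusted p = 0.870). The OPTN groups did not overlap, a separation that 8.70% of all loci showed in that direction.

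Of the glucocorticoid receptor list, to which DDIT4 and KLF15 are related as known targets, 6 of 12 were larger in gluteal muscle (median 0.011) and 2 of 12 in Wutou (median -0.22). TSC22D3, a glucocorticoid-induced leucine zipper protein, averaged 5.71 ± 1.08 FPKM in Wutou gluteal and 10.4 ± 2.26 in Wutou longissimus muscle (limma adjusted p = 0.870). This direction was opposite to that of KLF15. The TSC22D3 groups did not overlap, a separation that 4.18% of all loci showed in that direction. GLUL, glutamine synthetase, averaged 35.9 ± 17.5 FPKM in Wutou and 79.8 ± 27.0 in Sanfen (SD, n = 6 libraries each, limma adjusted p = 0.793). The 6 libraries of a strain pool both muscles and may share donkeys, here and for the strain means below. Of the branched-chain amino acid list, 15 of 17 were larger in gluteal muscle (median 0.20), as were KLF15 and 65.9% of all loci. In Wutou 8 of 17 were larger (median -0.0067). ALDH6A1 averaged 6.45 ± 1.40 FPKM in gluteal and 4.53 ± 1.28 in longissimus muscle, and MCCC1 2.29 ± 0.531 and 1.66 ± 0.145 (SD, n = 6 each, limma adjusted p = 0.745 for each gene). The MCCC1 groups did not overlap, a separation that 0.330% of all loci showed in that direction.

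Of the growth arrest and p53 list, 6 of 15 were larger in gluteal muscle (median -0.024) and 5 of 15 in Wutou (median -0.097). BAX, an effector of apoptosis, averaged 0.868 ± 0.336 FPKM in Wutou and 2.20 ± 1.12 in Sanfen (SD, n = 6 libraries each, limma adjusted p = 0.783). TIGAR averaged 4.08 ± 2.34 and 6.95 ± 0.297 FPKM in Wutou and Sanfen gluteal muscle (limma adjusted p = 0.963). Of the insulin, AKT and mTORC1 list, 13 of 22 were larger in gluteal muscle (median 0.060) and 9 of 22 in Wutou (median -0.096). PIK3R1, a regulatory subunit of PI3-kinase, averaged 7.61 ± 2.12 FPKM in gluteal and 4.69 ± 1.96 in longissimus muscle (limma adjusted p = 0.745), and DEPDC5, in a row merged with YWHAH, 1.56 ± 1.47 and 4.03 ± 0.740 in Wutou and Sanfen gluteal muscle (limma adjusted p = 0.963). TIGAR and DEPDC5 did not overlap between the strains in gluteal muscle, a separation that 8.68% of all loci showed in that direction.

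The denervation list had 4 of 8 larger in gluteal muscle (median -0.018) and 1 of 8 in Wutou (median -0.25). HDAC4 averaged 1.13 ± 0.231 FPKM in Wutou and 1.85 ± 0.530 in Sanfen, and CHRNA1, an acetylcholine receptor subunit, 1.41 ± 0.205 and 3.53 ± 2.25 (SD, n = 6 libraries each, limma adjusted p = 0.793 for each gene). The hypoxia list had 9 of 11 larger in gluteal muscle (median 0.10) and 2 of 11 in Wutou (median -0.11). NDRG1 averaged 2.89 ± 0.930 FPKM in Wutou and 5.43 ± 1.24 in Sanfen (limma adjusted p = 0.783), and HIF1A 4.06 ± 0.960 in gluteal and 2.98 ± 0.407 in longissimus muscle (limma adjusted p = 0.745). The integrated stress response list had 4 of 7 larger in gluteal muscle (median 0.019) and 2 of 7 in Wutou (median -0.16), with DDIT3 at 2.14 ± 0.884 and 6.11 ± 3.41 FPKM in Wutou and Sanfen gluteal muscle. ATF4, in a row merged with MIEF1, averaged 15.4 ± 6.59 FPKM in Wutou and 9.54 ± 2.22 in Sanfen (limma adjusted p = 0.814). The immediate early list had 3 of 11 larger in gluteal muscle (median -0.038) and 3 of 11 in Wutou (median -0.43), with BTG2 at 1.15 ± 0.737 and 3.5 ± 2.04 FPKM in Wutou and Sanfen (SD, n = 6 libraries each). EGR1 averaged 0.472 ± 0.301 FPKM in Wutou and 4.14 ± 5.14 in Sanfen longissimus (SD, n = 3 each), where the Sanfen libraries were listed at 1.1, 10.1 and 1.25 FPKM, so that replicate 2 carried the mean. The EGR1 groups did not overlap, a separation that 7.92% of all loci showed in that direction.

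Markers of other tissue were set beside the strain differences of FBXO32, GABARAPL1 and GADD45A. In bulk tissue, fewer cells of a type and less RNA per cell cannot be told apart. The tendon and cartilage list, with 6 of 7 genes listed and KERA and CHAD below 1 FPKM in every library, summed to 18.7 to 34.7 FPKM in Wutou gluteal, 20.8 to 28.6 in Wutou longissimus, 32.6 to 144 in Sanfen gluteal and 34.8 to 109 in Sanfen longissimus libraries. The nerve and Schwann list, with 5 of 5 listed and SOX10 below 1 FPKM throughout, summed to 3.43 to 6.71, 3.22 to 6.93, 7.54 to 14.9 and 6.53 to 9.30 FPKM in the same order of groups. The fast fibre list, with 8 of 12 genes listed, summed to 13397 to 19701, 19687 to 20784, 9859 to 17333 and 6646 to 18167 FPKM. The lowest sum was that of Sanfen longissimus replicate 2, in which FBXO32 was lowest of its group. Wutou longissimus replicate 2 and Wutou gluteal replicate 2, at 11.7 and 12.9 FPKM of FBXO32, had fast fibre sums of 19893 and 18695 FPKM. The slow fibre list, with 11 of 12 genes listed, summed to 2539 to 2769, 2740 to 4700.5, 3704 to 7740 and 2597 to 5664 FPKM. The satellite cell list, with 3 of 4 listed and CALCR below 1 FPKM throughout, summed to 1.43 to 2.23, 0.976 to 1.57, 1.95 to 2.65 and 1.90 to 3.16 FPKM. In gluteal muscle the reference row of FBXO32 did not overlap between strains. There the nerve and slow fibre lists lay lower in every Wutou library than in every Sanfen library. In longissimus, where GADD45A did not overlap, the tendon, satellite cell and erythroid lists lay lower and the fast fibre list higher in every Wutou library. The erythroid sums there were 0.0610 to 0.150 FPKM in Wutou and 0.252 to 3.76 in Sanfen. Their part in the levels of the 10 genes was not tested. The fibroblast list (6 of 6 listed) summed to 87.6 to 182 FPKM in Wutou gluteal, 99.2 to 143 in Wutou longissimus, 108 to 152 in Sanfen gluteal and 91.8 to 193 in Sanfen longissimus libraries, with overlap between the strains in both muscles. The leukocyte list (5 of 6 listed, PTPRC below 1 FPKM throughout) lay between 8.75 and 15.7 FPKM over all libraries.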

How the data were processed

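The deposited values are FPKM per locus in 12 libraries, per the file headers, with no rescaling between libraries recorded. The tools recorded, per the submitters' processing notes, are Bowtie2, TopHat2 and cutadapt, with no version. No source used here names the build, so coordinates and sequences are left out. All 10 symbols matched RefSeq's donkey gene table.

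Loci with at least 1 FPKM in at least 3 libraries were kept (12408). Values were tested as log2(FPKM + 1) with limma 3.58.1 (R 4.3.3), in 1 linear model over 4 groups with 8 residual degrees of freedom, variances moderated along a trend in level, and Benjamini-Hochberg adjustment over all kept loci at 0.05. For the strain comparison over both muscles, libraries of 1 strain and number formed a random block (statmod 1.5.0, consensus correlation 0.188). The model was also run on simulated data with independent libraries, a setting that does not cover libraries sharing a donkey.

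The 10 genes, the lists and the tests were chosen with earlier results of these data known. Named genes are the 10, the 2 genes of each list with the smallest p, TRIM63, FOXO1 and FOXO3, and the 4 genes most like FBXO32, DDIT4, KLF15 and CDKN1A by Pearson r. Counts of loci with a lone low library, or at 0 beside high values, and of replicate numbers were chosen after seeing the data.

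Libraries with the same replicate number in the 2 muscles had correlated deviations from the group means of 0.246, 0.110 and 0.158 in Sanfen, each above the limit of 0.1, and of 0.182, 0.165 and 0.0711 in Wutou. This pairing is read from the data and no label states it. The alternatives tried were replicate blocks, leaving out each library, summing the rows of a name, array weights, quantile normalization, rescaling by median of ratios, filtering at 5 FPKM or not at all, adding 0.1, and fitting 6 libraries alone. Figures used Python 3.11.15 and matplotlib 3.10.9.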

Additional observations from a re-analysis of the deposited data

How the results depend on the processing

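The count of the 10 genes called stayed at 0 in each of the 7 comparisons. This held in all 148 combinations of a comparison with an alternative setting, many of which share a fit. The smallest limma adjusted p was 0.477 (KLF15 between muscles, averaged over strains, with the random replicate block). With the fixed replicate block the count was 0 in each muscle comparison and in the interaction, and without a replicate block it was 0 between strains, so the block changed no call. Under the filter at 5 FPKM 6 of the 10 genes were tested.

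Alternatives were computed for 28 differences of the 10 genes: each gene averaged over strains and over muscles, and 8 others. The remaining printed differences, among them those of DDIT4 within each strain and of the list genes, were not recomputed. Of the 568 alternative values, 552 kept their direction and 16, in 7 of the 28, did not. The cause was not tested. With array weights the FBXO32 muscle difference was -0.010, the MAP1LC3B strain difference 0.060 and the CDKN1A strain difference 0.069. The MAP1LC3B strain difference was 0.014 with median-of-ratios rescaling and 0.022 with quantile normalization. Leaving out each library in turn gave muscle differences, averaged over strains, of -0.062 to 0.37 for FBXO32, -0.071 to 0.27 for GABARAPL1, -0.0079 to 0.20 for BNIP3 and -0.11 to 0.20 for GADD45A. The strain differences ran from -0.31 to 0.41 for FBXO30, -0.14 to 0.071 for MAP1LC3B and -0.42 to 0.17 for CDKN1A.

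Counts over all loci were small and unsteady. Over the settings other than a left-out library they ran from 0 to 3 between muscles in Wutou, 1 to 5 in Sanfen and 0 to 1 averaged, and from 0 to 2 between strains in gluteal muscle, 0 to 7 in longissimus and 0 to 1 averaged. With a library left out the highest counts were 2, 5, 4, 3, 6 and 1 in that order. Read depth is unknown, and no limit from depth can be set for GADD45A, KLF15 or MAP1LC3B, whose levels lie near 1 FPKM.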
